A study of Homo sapiens with 6 samples.

Results

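The phosphoglucomutase genes PGM1, PGM2, PGM2L1, PGM3 and PGM5 and the glycogen enzyme genes UGP2, GYS1, PYGB, PYGL and GBE1 were followed in SW480 cells that overexpressed TIPE, the common name of TNFAIP8, and in cells that carried the empty vector. The 10 genes were taken by symbol from a table of 60605 genes, and each symbol matched 1 gene. They were selected on measured values, the counts and FPKM of these same TIPE and vector libraries, so their differences are a description and carry no test. SW480 is a long-established cell line derived from a human colon adenocarcinoma. A lentivirus delivered either the TIPE construct (SW480OE, n = 3 libraries, here TIPE 1 to 3) or the empty vector (SW480V, n = 3 libraries, here vector 1 to 3), and both groups were kept under puromycin before poly(A) RNA was sequenced. The sources used here give neither the promoter of the construct nor whether each group is a pool or a clone. No label states separate cultures or infections for the replicates, and the p-values therefore measure only the spread between libraries, a spread that may be technical.

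Phosphoglucomutases move a phosphate between the carbons of a sugar, and PGM1 does this between glucose 6-phosphate and glucose 1-phosphate, the step that joins glycolysis to glycogen. UGP2 turns glucose 1-phosphate into UDP-glucose, GYS1 adds that glucose to a glycogen chain, GBE1 makes the branches, and the phosphorylases PYGB and PYGL release glucose 1-phosphate again. The other mutases have drifted to other substrates: PGM2 acts on pentose phosphates, PGM2L1 makes the cofactor glucose 1,6-bisphosphate, PGM3 isomerises N-acetylglucosamine phosphates for UDP-N-acetylglucosamine, and PGM5, also called aciculin, has little mutase activity and sits at adhesion sites of muscle with dystrophin, utrophin and filamin C.

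The upstream windows of the called genes for which RefSeq promoter sequence was at hand are shown here, because PYGB and PYGL were higher and PGM2L1 was lower in TIPE libraries. Of the 10 genes, 9 had an entry, and PGM5 had none. Each window holds the 250 bases before the annotated start, 5′ to 3′ on the gene's strand, from the RefSeq table for GRCh38.p14. Capitals mark the GC box letters GGGCGG or their reverse complement CCGCCC, with overlapping matches joined. The windows are chr20:25247835-25248084 on the plus strand for PYGB, chr14:50944484-50944733 on the minus strand for PYGL and chr11:74398434-74398683 on the minus strand for PGM2L1.
PYGB: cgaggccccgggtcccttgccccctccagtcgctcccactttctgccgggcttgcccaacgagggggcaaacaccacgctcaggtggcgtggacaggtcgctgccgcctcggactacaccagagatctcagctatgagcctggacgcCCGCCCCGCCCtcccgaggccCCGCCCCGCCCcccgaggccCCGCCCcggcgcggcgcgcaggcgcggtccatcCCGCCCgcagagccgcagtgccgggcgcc
PYGL: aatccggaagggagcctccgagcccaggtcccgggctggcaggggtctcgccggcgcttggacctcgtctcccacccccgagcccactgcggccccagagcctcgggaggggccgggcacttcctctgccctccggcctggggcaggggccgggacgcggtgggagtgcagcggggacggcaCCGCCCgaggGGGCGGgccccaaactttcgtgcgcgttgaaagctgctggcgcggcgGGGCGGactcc
PGM2L1: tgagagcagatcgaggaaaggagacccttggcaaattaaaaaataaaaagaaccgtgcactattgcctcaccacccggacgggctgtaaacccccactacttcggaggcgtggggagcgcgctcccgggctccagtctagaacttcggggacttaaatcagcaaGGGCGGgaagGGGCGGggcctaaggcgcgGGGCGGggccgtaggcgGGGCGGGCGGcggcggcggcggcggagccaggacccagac
PYGB held 6 matches, PYGL held 3 and PGM2L1 held 5. The GC content was 76.4% for PYGB, 76.0% for PYGL and 64.8% for PGM2L1. At least 1 match was found in 42.6% of all 35116 windows of this length, so the genes that were higher and the gene that was lower share letters that are common upstream of human genes. Of the uncalled genes, GYS1 had 3 matches, PGM3 had 2, PGM2, UGP2 and GBE1 had 1 each, and PGM1 had 0.

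The overexpressed transcript went with the labels in all 6 libraries. TNFAIP8 averaged 576 ± 48.3 FPKM in TIPE libraries and 1.04 ± 0.263 FPKM in vector libraries (SD, n = 3 each), where FPKM is the count scaled by exonic length and by the library's total count. Total counts ranged from 13957349 to 20345330 per library, the share of mitochondrial counts from 5.92% to 7.06%, and the first principal component separated the groups with 51.7% of the variance. The summed FPKM of 8 colon epithelium markers was 1594 to 1651 in TIPE libraries and 1211 to 1304 in vector libraries, with KRT20 and CDH17 below 1 FPKM in every library. Of these 8, 4 were called higher and EPCAM was called lower (log2 fold change -0.20, adjusted p = 0.0309 in edgeR's quasi-likelihood test). The FPKM of EPCAM overlapped between the groups, and EPCAM passed in 1 of the 6 fits that leave out a library. When each library's trend with GC content and exonic length was removed, EPCAM had -0.26 and stayed called. KRT19, 1 of the 4, had 0.03 in that fit and no longer passed (adjusted p = 0.645). Of 5 leukocyte markers, PTPRC and CD3E had a count of 0 in every library. In bulk RNA a change in how many cells express a gene and a change in RNA per cell cannot be told apart.

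PGM5 had the largest difference among the 10 genes. It stood at 2.02, 2.27 and 2.14 FPKM in TIPE libraries 1, 2 and 3, against 0.54, 0.62 and 0.55 FPKM in vector libraries 1, 2 and 3. Every TIPE library was above every vector library. These values rest on 255, 356 and 230 counts in TIPE libraries and on 64, 93 and 61 counts in vector libraries, so PGM5 was a low transcript in both groups. The means were 2.14 ± 0.125 FPKM in TIPE libraries and 0.570 ± 0.0436 FPKM in vector libraries (SD, n = 3 each), and edgeR's quasi-likelihood model gave a log2 fold change of 1.98 (SE 0.12), or 3.93-fold. Leaving out each library in turn gave a log2 fold change between 1.92 and 2.04. Of the 14205 genes tested, 15 (0.106%) were called higher with a log2 fold change at least as large, PGM5 among them.

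**Figure D1:**
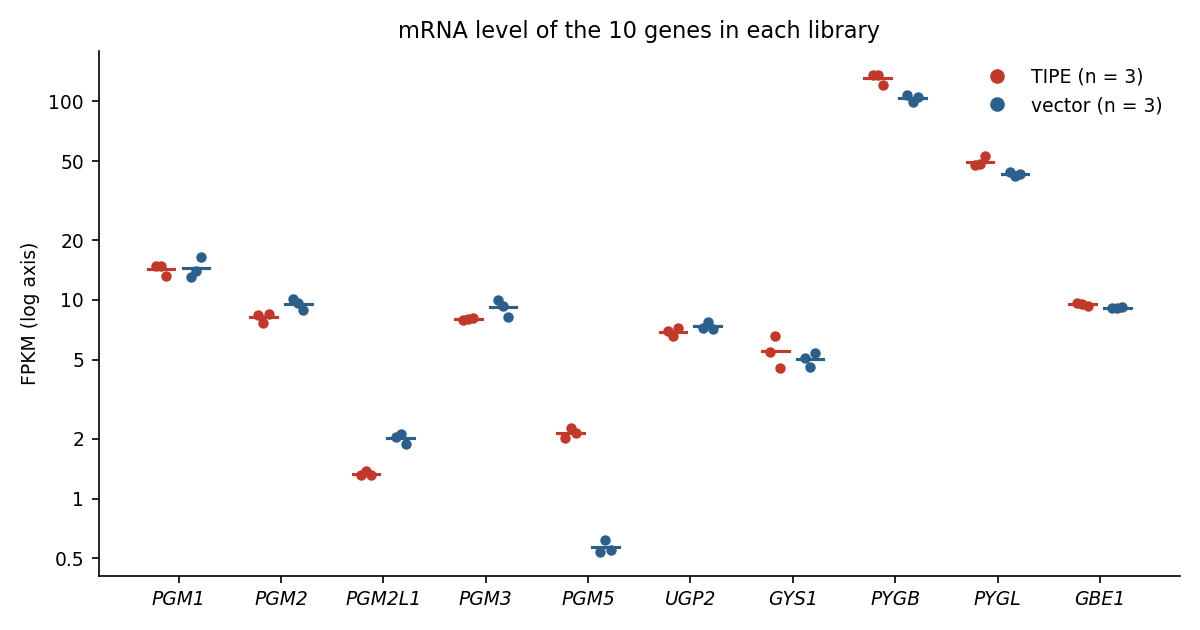
FPKM of the 10 genes on a log axis in the 3 TIPE libraries (red, left of each pair) and the 3 vector libraries (blue, right); points are libraries and bars are group means. PGM5 is the gene with the widest gap, at 2.02 to 2.27 FPKM in TIPE libraries and 0.54 to 0.62 FPKM in vector libraries, and PGM2L1 lies in the other direction.

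PGM5 lies on chromosome 9 at 68328308 to 68531061 on the plus strand of hg38 and has near copies elsewhere. The pseudogene PGM5P2 matched the longest PGM5 transcript at 98.5% identity over 1214 bases. PGM5P2 had 24, 32 and 22 counts in TIPE libraries and 22, 38 and 19 counts in vector libraries, and its log2 fold change was 0.02 (SE 0.27, adjusted p = 0.958 in edgeR's quasi-likelihood test). The copy therefore had fewer counts than PGM5 in every library and showed no detectable difference at this depth. WASHC1, a WASH complex gene that shares 164 bases with PGM5 at 99.4% identity, had 303, 359 and 296 counts in TIPE libraries and 234, 316 and 255 counts in vector libraries.

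The remaining transcripts at or named after the locus had low counts. PGM5-AS1 had 0, 2 and 0 counts in TIPE libraries and 0 counts in every vector library, PGM5P4 had 3, 6 and 1 counts in TIPE libraries and 0, 1 and 4 counts in vector libraries, and PGM5P4-AS1 had at most 3 counts in any library. PGM5P3-AS1 had 24, 20 and 13 counts in TIPE libraries and 10, 25 and 8 counts in vector libraries. A gene of no given symbol inside PGM5 on the opposite strand, ENSG00000233178, had 7, 10 and 6 counts in TIPE libraries and 10, 4 and 1 counts in vector libraries. The sources used here do not give whether the counting used strand, so reads of PGM5 and of transcripts on the other strand cannot be told apart. The nearest tested gene before PGM5, CBWD3 at 28273 bases, had a log2 fold change of 0.06 (SE 0.14, adjusted p = 0.745), and 0.35 (adjusted p = 0.05, just under the threshold) once the GC and length trend was removed. PABIR1, 249004 bases after it, fell by 0.29 on the log2 scale (SE 0.08, adjusted p = 0.00571 in edgeR's quasi-likelihood test) but did not pass in that second fit.

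**Figure D2:**
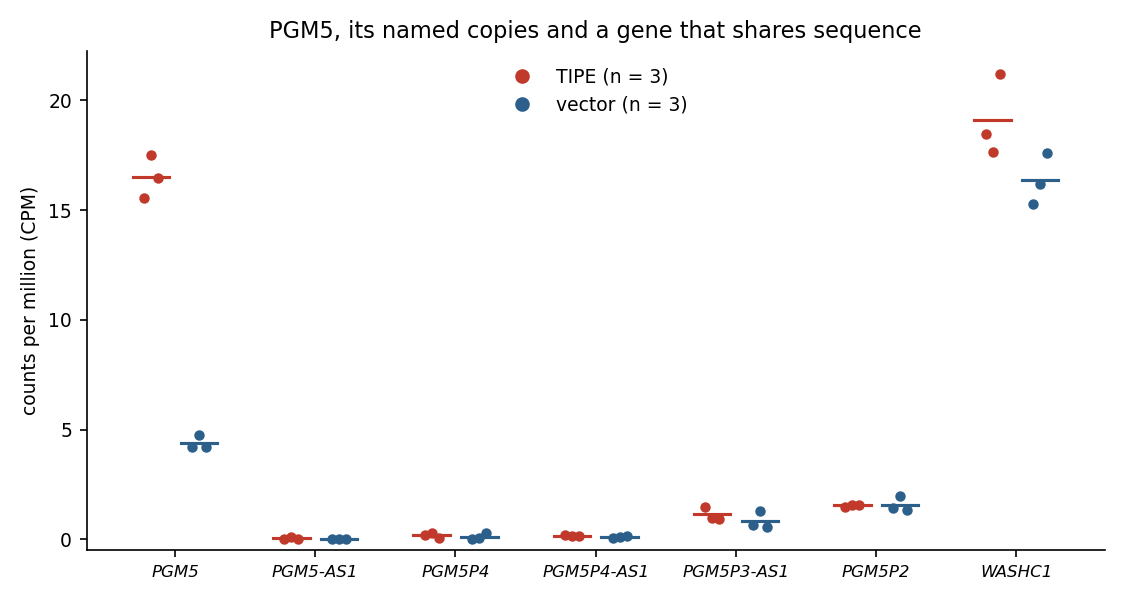
Counts scaled by the library's total count (CPM) of PGM5, its named copies and antisense transcripts, and WASHC1, which shares a stretch of sequence with it, in the 3 TIPE libraries (red, left) and the 3 vector libraries (blue, right); bars are group means. PGM5 lies at 15.6 to 17.5 CPM in TIPE libraries and 4.18 to 4.77 in vector libraries, while PGM5P2 stays between 1.31 and 1.95 in all 6.

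PGM2L1, the synthase of glucose 1,6-bisphosphate, was the gene of the family that was lower. Its levels were 1.31, 1.37 and 1.31 FPKM in TIPE libraries 1, 2 and 3, against 2.05, 2.11 and 1.88 FPKM in vector libraries 1, 2 and 3. All 3 TIPE libraries were below all 3 vector libraries. The means were 1.33 ± 0.0346 FPKM in TIPE libraries and 2.01 ± 0.119 FPKM in vector libraries (SD, n = 3 each). The log2 fold change was -0.53 (SE 0.09), a level 1.44-fold lower in TIPE libraries. When each library's trend with GC content and exonic length was removed, the log2 fold change was -0.30, still past the threshold. PGM2L1 has a transcript GC content of 38.3%, the lowest of the 10 genes.

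PGM1, the main mutase of glucose phosphates, stood at 14.8, 14.8 and 13.3 FPKM in TIPE libraries and at 13.1, 14.0 and 16.4 FPKM in vector libraries. The groups overlapped, and vector 3 was the highest library. The log2 fold change was 0.06 (SE 0.08) and its sign changed with library totals alone and in both limma fits on FPKM, so no direction is given for PGM1.

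PGM2, which acts on pentose phosphates, had 8.39, 7.63 and 8.5 FPKM in TIPE libraries and 10.1, 9.64 and 8.89 FPKM in vector libraries. The TIPE libraries were all below the vector libraries, yet the log2 fold change of -0.16 (SE 0.07) did not pass the threshold. It passed when libraries were scaled by their totals alone, at -0.23, and in limma on log2(FPKM + 1), at -0.20, but was -0.06 once the GC and length trend was removed.

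PGM3, the mutase of the hexosamine pathway, had 7.89, 7.97 and 8.07 FPKM in TIPE libraries and 9.99, 9.31 and 8.23 FPKM in vector libraries. No TIPE library reached the lowest vector library, but TIPE 3 and vector 3 lay close together. The log2 fold change was -0.13 (SE 0.07), and it was 0.07 once the GC and length trend was removed. PGM3 passed the threshold without vector 3, at -0.20, and with library totals alone, at -0.20. Its 3′ part overlaps DOP1A on the opposite strand over 10201 bases of the genome, and 897 exonic bases are complementary to a DOP1A transcript. DOP1A had a log2 fold change of -0.58 (SE 0.08, adjusted p = 1.2e-05 in edgeR's quasi-likelihood test), and its part in the PGM3 counts was not tested.

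The summed FPKM of the 5 mutase genes was 33.9 ± 0.573 in TIPE libraries and 35.8 ± 0.128 in vector libraries (SD, n = 3 each). FPKM is scaled by library totals alone, and with that scaling the median log2 fold change over all genes tested was -0.072. No fall is therefore read from the sum. PGM1 made up 42.1 ± 1.98% of that sum in TIPE libraries and 40.5 ± 4.61% in vector libraries, PGM2 24.1 ± 1.59% in TIPE libraries and 26.7 ± 1.75% in vector libraries, and PGM3 23.5 ± 0.665% in TIPE libraries and 25.7 ± 2.55% in vector libraries. The make-up of the mutase mRNA thus stayed dominated by the same 3 enzymes. PGM5 supplied 6.32 ± 0.408% of the sum in TIPE libraries and 1.59 ± 0.126% in vector libraries. PGM2L1 supplied 3.92 ± 0.108% in TIPE libraries and 5.63 ± 0.353% in vector libraries. PGM1 mRNA exceeded PGM5 mRNA per length by 6.68 ± 0.579 times in TIPE libraries and by 25.5 ± 3.77 times in vector libraries.

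**Figure D3:**
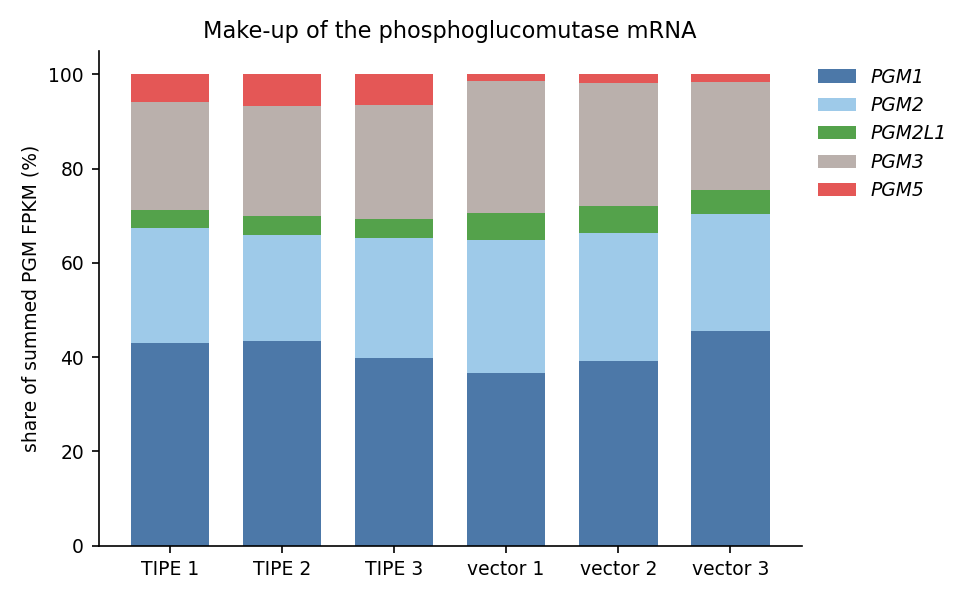
Share of the summed FPKM of the 5 phosphoglucomutase genes in each library, TIPE libraries left and vector libraries right; each stacked bar adds up to all mutase FPKM of that library. The PGM5 segment is 5.87% to 6.67% in TIPE libraries and 1.51% to 1.74% in vector libraries, and the PGM2L1 segment is the smaller in TIPE libraries.

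PYGB, the brain-type glycogen phosphorylase, was the most abundant of the 10 transcripts per length. It had 136, 135 and 121 FPKM in TIPE libraries and 107, 99.1 and 105 FPKM in vector libraries, with no overlap. The means were 131 ± 8.53 FPKM in TIPE libraries and 104 ± 4.23 FPKM in vector libraries (SD, n = 3 each), and the log2 fold change was 0.40 (SE 0.06), or 1.32-fold. With the GC and length trend removed the log2 fold change was 0.24, still past the threshold. PYGB has a transcript GC content of 58.5%. Its 3′ end overlaps ABHD12 on the opposite strand over 3271 bases, and ABHD12, a lipase gene, had a log2 fold change of 0.18 (SE 0.06, adjusted p = 0.0232 in edgeR's quasi-likelihood test) at 12.2 ± 0.370 FPKM in TIPE libraries and 11.3 ± 0.342 FPKM in vector libraries (SD, n = 3 each). ABHD12 passed in 3 of the 6 fits that leave out a library and not without the GC and length trend. The level of ABHD12 was far below that of PYGB in both groups.

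PYGL, the liver-type phosphorylase, had 47.7, 48.4 and 52.7 FPKM in TIPE libraries and 43.8, 42.0 and 42.9 FPKM in vector libraries. Again every TIPE library was above every vector library. The means were 49.6 ± 2.70 FPKM in TIPE libraries and 42.9 ± 0.925 FPKM in vector libraries (SD, n = 3 each), with a log2 fold change of 0.28 (SE 0.06), or 1.21-fold, and 0.21 with the GC and length trend removed. ABHD12B lies on the opposite strand across 32918 bases of PYGL and had a log2 fold change of 0.16 (SE 0.06, adjusted p = 0.0422 in edgeR's quasi-likelihood test). ABHD12B passed in 1 of the 6 fits that leave out a library. It stood at 10.8 ± 0.219 FPKM in TIPE libraries and 10.1 ± 0.155 FPKM in vector libraries (SD, n = 3 each). The summed FPKM of PYGB, PYGL and the muscle-type PYGM was 180.5 ± 5.82 in TIPE libraries and 147 ± 5.11 in vector libraries, and PYGB made up 72.3 ± 2.44% of it in TIPE libraries and 70.7 ± 0.435% in vector libraries.

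None of the 3 genes of glycogen synthesis among the 10 was called. GYS1, the glycogen synthase found outside the liver, had 5.45, 6.57 and 4.53 FPKM in TIPE libraries and 5.10, 4.57 and 5.41 FPKM in vector libraries. TIPE 2 was the highest and TIPE 3 the lowest of all 6, so the groups overlapped, and the coefficient of variation was 18.5% among TIPE libraries and 8.45% among vector libraries. The log2 fold change of GYS1 was 0.23 (SE 0.11), under the threshold, and it was 0.35 and past the threshold without TIPE 3, 0.06 without TIPE 2 and 0.06 with the GC and length trend removed. The 2 neighbours of GYS1 both rose: FTL, the ferritin light chain 1251 bases away, had a log2 fold change of 0.40 (SE 0.06, adjusted p = 1.1e-05), and RUVBL2, a helicase 252 bases away, had 0.41 (SE 0.06, adjusted p = 9.1e-06 in edgeR's quasi-likelihood test).

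UGP2, which makes UDP-glucose, had 6.99, 6.55 and 7.20 FPKM in TIPE libraries and 7.20, 7.74 and 7.17 FPKM in vector libraries, and the groups overlapped. Its log2 fold change was -0.03 (SE 0.07), and 0.16 and past the threshold with the GC and length trend removed, a call lost when the replicate block was added to that fit, so no direction is given for UGP2. GBE1, the branching enzyme, had 9.69, 9.50 and 9.32 FPKM in TIPE libraries and 9.13, 9.13 and 9.17 FPKM in vector libraries. Its groups did not overlap, but the difference was small. The log2 fold change of GBE1 was 0.13 (SE 0.06), under the threshold, and 0.18 and past it with the trend removed, again not with the block added. The ratio of summed phosphorylase FPKM to GYS1 FPKM was 33.4 ± 5.21 in TIPE libraries and 29.3 ± 1.82 in vector libraries (SD, n = 3 each), a difference smaller than the spread among TIPE libraries.

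All 10 genes passed the expression filter, a mean of 0.5 FPKM over the 6 libraries. At an adjusted p of 0.05 over all genes, 3 of the 10 were called higher in TIPE libraries (PGM5, PYGB and PYGL), 1 was called lower (PGM2L1) and 6 were not called, against 41.5% of the 14205 genes tested called in either direction, 20.9% higher and 20.7% lower. Nothing is read from the 10 genes' share, since this difference helped to choose them. Their median log2 fold change was 0.09, beside -0.00048 over all genes tested. With the GC and length trend removed, 5 of the 10 were called higher (3 with the replicate block added) and 1 lower, beside 34.3% of all genes called, 17.6% higher and 16.7% lower. By FPKM, 4 of the 10 had all TIPE libraries above all vector libraries and 3 had all of them below, beside 19.0% and 31.5% of all genes tested, or 50.5% either way. These shares rest on scaling by library totals alone, which put the median log2 fold change over all genes tested at -0.072. PGM5 is one of the 205 genes (1.44%) called with at least a 2-fold difference.

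**Figure D4:**
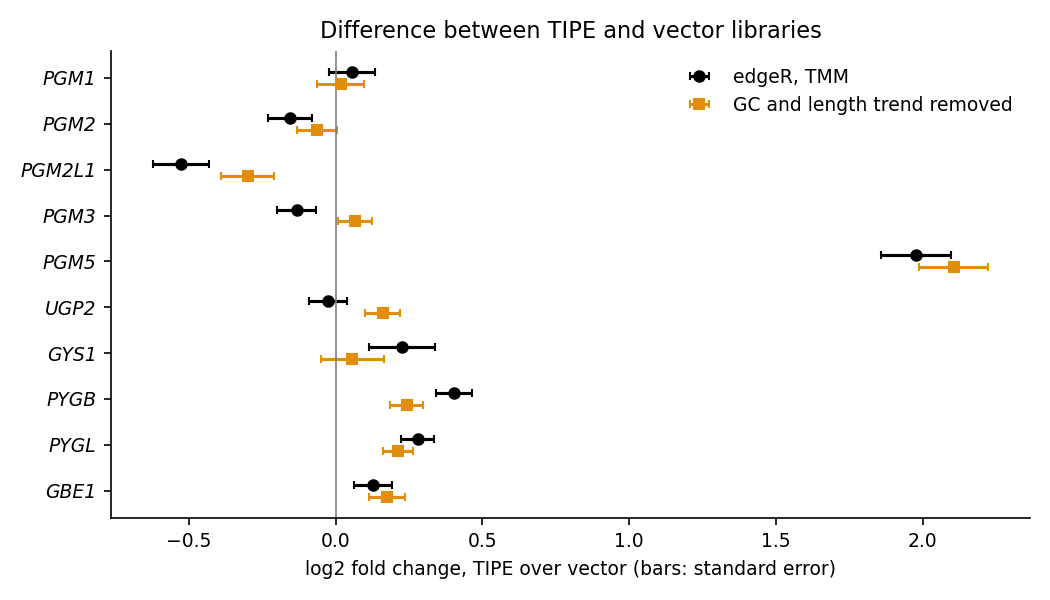
Log2 fold change of the 10 genes, TIPE over vector, with its standard error, from edgeR with TMM scaling (black circles) and with each library's GC and length trend removed (orange squares). PGM5 stands at 1.98 and 2.10, PYGB at 0.40 and 0.24, PGM2L1 at -0.53 and -0.30, and PGM3 and UGP2 change sign.

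Ordered by FPKM, a level per length, TIPE libraries ran PYGB, PYGL, PGM1, GBE1, PGM2, PGM3, UGP2, GYS1, PGM5 and PGM2L1, and vector libraries ran PYGB, PYGL, PGM1, PGM2, PGM3, GBE1, UGP2, GYS1, PGM2L1 and PGM5. In TIPE libraries the ranges of PGM2 and PGM3 overlapped, as did those of UGP2 and GYS1. In vector libraries the ranges of PGM2, PGM3 and GBE1 all overlapped with each other, so the order among them is not settled. PGM5 and PGM2L1 held opposite places at the low end, and their ranges were apart in both groups.

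Of 23 other listed genes of glycogen synthesis and breakdown, 13 were tested, of which 5 rose, 3 fell and 5 did not pass the threshold, with a median log2 fold change of -0.11. Of all genes tested, 20.9% were called higher and 20.7% lower. With the GC and length trend removed, 4 of the 13 were called higher and 4 lower, beside 17.6% and 16.7% of all genes tested. The median of the list was then 0.06. Phosphorylase kinase, which switches phosphorylase on, had 3 called subunits in this list and 2 that were not called. PHKG2, its catalytic subunit, averaged 2.24 ± 0.147 FPKM in TIPE libraries and 1.67 ± 0.0451 FPKM in vector libraries (SD, n = 3 each), with a log2 fold change of 0.50 (SE 0.10, adjusted p = 0.000281 in edgeR's quasi-likelihood test). The regulatory subunit PHKA1 had a log2 fold change of 0.28 (SE 0.07, adjusted p = 0.0023), and PHKA2 had 0.24 (adjusted p = 0.0323). PHKB had -0.15 (adjusted p = 0.0565), with every TIPE library below every vector library, and PHKG1, under the filter, had 0.24 (adjusted p = 0.749). GYG1, the glycogenin that primes new chains, had 0.28 (SE 0.08, adjusted p = 0.00476), and the lysosomal glucosidase GAA had 0.24 (adjusted p = 0.00383).

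GSK3B, a kinase that inhibits glycogen synthase, had the smallest adjusted p of that list. It had 3.75, 3.60 and 3.41 FPKM in TIPE libraries and 5.16, 5.35 and 5.07 FPKM in vector libraries, with no overlap. It fell by 0.46 on the log2 scale (SE 0.06, adjusted p = 3.6e-06 in edgeR's quasi-likelihood test), and without the GC and length trend its log2 fold change was -0.21. PPP1R3D and PPP1R3B, subunits that bring protein phosphatase to glycogen, had log2 fold changes of -0.75 (SE 0.22, adjusted p = 0.0092) and -0.50 (adjusted p = 0.0349), and both were scarce transcripts. Of the 10 listed genes under the filter, GYG2, a second glycogenin, and PYGM rose in the fit without a filter, with log2 fold changes of 1.66 (SE 0.38, adjusted p = 0.000143) and 1.53 (SE 0.43, adjusted p = 0.0029). These levels were low: GYG2 averaged 0.400 ± 0.0889 FPKM in TIPE libraries and 0.127 ± 0.0757 FPKM in vector libraries, and PYGM 0.240 ± 0.0346 FPKM in TIPE libraries and 0.0867 ± 0.0252 FPKM in vector libraries (SD, n = 3 each). In that fit 20.1% of 29836 genes were called, 10.1% higher and 9.93% lower, and 2.71% of the genes under the filter. GYS2, PPP1R3A and PPP1R3C had a count of 0 in every library.

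Several calls of the glycogen list depended on a single choice. PHKA2 passed the threshold in 1 of the 6 fits that leave out a library, and PPP1R3B in 2 of 6. PPP1R3D did not pass without vector 3 (adjusted p = 0.0586), GYG1 did not without TIPE 2 (adjusted p = 0.0512), and GAA did not once the GC and length trend was removed (log2 fold change 0.06). PHKA1, GYG1, GAA, PHKA2 and PPP1R3B did not pass in limma on log2(FPKM + 1), which left PHKG2 as the only 1 of the 5 that rose there.

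Of 13 listed enzymes and the transporter that make or use glucose 6-phosphate, 9 were tested, of which 5 rose, 0 fell and 4 did not pass, with a median log2 fold change of 0.23, beside 41.5% of all genes tested called (20.9% higher, 20.7% lower). HK1, a hexokinase, had 30.4, 31.9 and 28.2 FPKM in TIPE libraries and 22.8, 21.4 and 22.4 FPKM in vector libraries, a log2 fold change of 0.52 (SE 0.06, adjusted p = 1.3e-06 in edgeR's quasi-likelihood test). GPI, which makes fructose 6-phosphate, had 24.6 ± 0.615 FPKM in TIPE libraries and 18.3 ± 1.12 FPKM in vector libraries (SD, n = 3 each), with a log2 fold change of 0.50 (SE 0.06, adjusted p = 1.5e-06). Neither gene's groups overlapped. The phosphatase G6PC3 had 0.27 (adjusted p = 0.00568) and the transporter SLC37A4 0.23 (adjusted p = 0.00688). HK2, the other abundant hexokinase beside HKDC1, had 0.12 (adjusted p = 0.1), and HKDC1 had -0.12 (adjusted p = 0.0818). With the GC and length trend removed, SLC37A4 no longer passed (0.13, adjusted p = 0.0917) and HKDC1 did, at -0.23. G6PC3 did not pass without TIPE 2 (adjusted p = 0.0605) or without vector 1 (adjusted p = 0.0546).

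Of 15 listed enzymes of hexosamine, UDP-sugar and galactose metabolism, the routes around PGM3, UGP2 and PGM1, 14 were tested, of which 2 rose, 2 fell and 10 did not pass, with a median log2 fold change of 0.02, beside 41.5% of all genes tested called (20.9% higher, 20.7% lower). GFPT1, the first enzyme of the hexosamine pathway, had 16.7, 17.04 and 16.4 FPKM in TIPE libraries and 22.8, 23.0 and 20.7 FPKM in vector libraries, and fell by 0.34 on the log2 scale (SE 0.06, adjusted p = 7.8e-05 in edgeR's quasi-likelihood test). GNPNAT1, the acetylase just before PGM3, fell by 0.23 on the log2 scale (adjusted p = 0.00401). UAP1, the step after PGM3, had -0.13 (adjusted p = 0.148). GALK1, galactokinase, rose by 0.46 on the log2 scale (SE 0.11, adjusted p = 0.00131), and NAGK, which salvages N-acetylglucosamine, by 0.26 (adjusted p = 0.0255). With the GC and length trend removed, GFPT1 (-0.11, adjusted p = 0.0931), GNPNAT1 (-0.12, adjusted p = 0.102) and GALK1 (0.22, adjusted p = 0.106) no longer passed. NAGK did not pass without TIPE 1, vector 2 or vector 3, with adjusted p-values of 0.071, 0.0775 and 0.102.

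Of 14 listed phosphomannomutases and pentose or nucleoside enzymes, the neighbours of PGM2 and PGM2L1 in metabolism, 12 were tested, of which 6 rose, 0 fell and 6 did not pass, with a median log2 fold change of 0.17, beside 41.5% of all genes tested called (20.9% higher, 20.7% lower). PMM1, a phosphomannomutase that also handles glucose 1,6-bisphosphate, had 1.47, 1.41 and 1.45 FPKM in TIPE libraries and 0.89, 0.73 and 0.75 FPKM in vector libraries. The groups were well apart, with a log2 fold change of 0.94 (SE 0.15, adjusted p = 3.1e-05 in edgeR's quasi-likelihood test). PMM2, the mutase needed for protein glycosylation, had -0.06 (adjusted p = 0.422). The FPKM ratio of PMM1 to PGM2L1 was 1.09 ± 0.0498 in TIPE libraries and 0.393 ± 0.0444 in vector libraries (SD, n = 3 each). TKT, transketolase, averaged 31.4 ± 0.959 FPKM in TIPE libraries and 23.3 ± 1.16 FPKM in vector libraries (SD, n = 3 each), with a log2 fold change of 0.50 (SE 0.06, adjusted p = 1.3e-06). PRPS1, TALDO1, PNP and PRPS2 rose by 0.23 to 0.27 on the log2 scale, and TALDO1 no longer passed without the GC and length trend (0.09, adjusted p = 0.208).

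**Figure D5:**
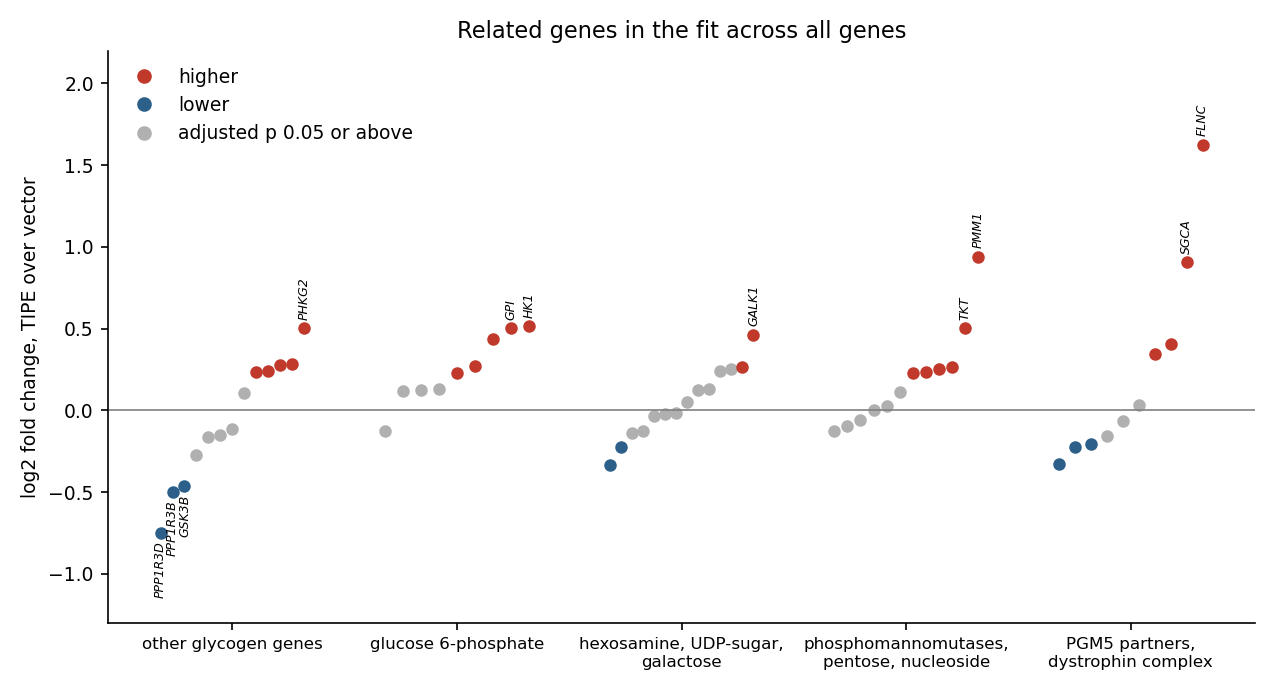
Log2 fold change, TIPE over vector, of the tested genes in the 5 lists, with red for genes called higher in TIPE libraries, blue for genes called lower and grey for an adjusted p of 0.05 or above; names mark the called genes with the largest differences. Over the 5 lists 22 of 58 tested genes are red and 8 are blue, and FLNC has the highest value at 1.62.

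Of 16 listed genes for reported partners of PGM5 and the dystrophin-associated complex, 10 were tested, of which 4 rose, 3 fell and 3 did not pass, with a median log2 fold change of -0.02, beside 41.5% of all genes tested called (20.9% higher, 20.7% lower). FLNC, filamin C, an actin crosslinker known from muscle, had 1.49, 1.61 and 0.98 FPKM in TIPE libraries and 0.37, 0.43 and 0.63 FPKM in vector libraries. TIPE 3 and vector 3 came closest, but the groups did not overlap, and the log2 fold change was 1.62 (SE 0.19, adjusted p = 9.5e-07 in edgeR's quasi-likelihood test). UTRN, utrophin, had 1.81, 1.36 and 1.62 FPKM in TIPE libraries and 1.28, 1.34 and 1.15 FPKM in vector libraries, a log2 fold change of 0.41 (SE 0.10, adjusted p = 0.00228), and did not pass in limma on log2(FPKM + 1). SGCA, a sarcoglycan, rose by 0.91 on the log2 scale (SE 0.22, adjusted p = 0.00261).

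Other members of the same complex went the other way or were not expressed. SGCB, another sarcoglycan, fell by 0.33 on the log2 scale (adjusted p = 0.00586), SNTB2 by 0.21 (adjusted p = 0.0106) and SGCE by 0.22 (adjusted p = 0.0441). DMD, dystrophin itself, and XIRP1, the Xin protein, were listed at 0 FPKM in every library, as was SGCD. With the GC and length trend removed, SNTB2 (-0.01), SGCB (-0.21) and SGCE (0.13) no longer passed, and SGCE changed sign, so no direction holds for SGCE. SGCE passed in 2 and SNTB2 in 3 of the 6 fits that leave out a library. DAG1, of the same list, had -0.15 in the main fit and did not pass (adjusted p = 0.0774 in edgeR's quasi-likelihood test). With the GC and length trend removed, DAG1 had -0.22 and was called lower (adjusted p = 0.00581 in the same test). Every TIPE library was below every vector library in DAG1 FPKM.

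PGM5 is known from muscle, so markers of cells that could carry it were read beside it. The 8 smooth muscle markers were each below 1 FPKM, ACTG2 had a count of 0 in every library, and their summed FPKM was 1.28 to 1.73 in TIPE libraries and 1.19 to 1.56 in vector libraries. Of these, TAGLN rose by 0.51 on the log2 scale (SE 0.18, adjusted p = 0.0249 in edgeR's quasi-likelihood test), and passed in 3 of the 6 fits that leave out a library. The FPKM of TAGLN overlapped between the groups. With the GC and length trend removed, TAGLN had 0.42 and no longer passed (adjusted p = 0.0794 in the same test). The 6 fibroblast markers summed to 2.36 to 3.32 FPKM in TIPE libraries and 1.78 to 2.84 FPKM in vector libraries, with COL1A2 and COL3A1 at a count of 0 in every library. LUM made up most of that sum, at 2.22 ± 0.467 FPKM in TIPE libraries and 1.94 ± 0.443 FPKM in vector libraries (SD, n = 3 each), with a log2 fold change of 0.23 (SE 0.18, adjusted p = 0.314). PDGFRB rose among them, at 0.537 ± 0.0252 FPKM in TIPE libraries and 0.240 ± 0.0889 FPKM in vector libraries (SD, n = 3 each; adjusted p = 3.2e-07 in edgeR's test without a filter). The part of such cells in the PGM5 difference was not tested.

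The genes whose profile was most like that of PGM5, by Pearson's r of log2 CPM over the 6 libraries, were CCDC71L (0.999), ANTXR2 (0.999), TNFAIP2 (0.998), TYSND1 (0.998) and NUCB1 (0.998). The 6 points fall into 2 groups of 3 libraries, and 111 of the 14204 other genes tested had an r of at least 0.99. TNFAIP2, a gene induced by TNF, had 2.15 to 2.24 FPKM in TIPE libraries and 0.32 to 0.43 FPKM in vector libraries. ANTXR2, an anthrax toxin receptor, averaged 2.81 ± 0.0306 FPKM in TIPE libraries and 1.34 ± 0.0985 FPKM in vector libraries (SD, n = 3 each). TYSND1 was more abundant and moved less, with 15.4 ± 0.156 FPKM in TIPE libraries and 13.2 ± 0.110 FPKM in vector libraries.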

How the data were processed

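Poly(A) RNA was sequenced from 6 libraries of SW480 cells, 3 with TIPE and 3 with empty vector. Per the file headers, the authors' deposited table holds a raw count and an FPKM value per gene and library. The deposited FPKM matched the count scaled by exonic length and library total within 0.005 for all 363630 values. Per the submitters' processing notes, HISAT2 2.0.1 and hg38 were used. The sources used here give no counting tool, annotation release or strand setting.

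Groups came from the treatment labels. Genes with a mean of at least 0.5 FPKM were kept (14205 genes), scaled by TMM (0.962 to 1.03) and tested with edgeR 4.0.16 (glmQLFit and glmQLFTest, R 4.3.3, group as the only term, two-sided, Benjamini-Hochberg adjusted over all genes tested, threshold 0.05). Standard errors were the size of the log2 fold change over the root of F. Genes under the filter came from the same fit without it (29836 genes). The within-group biological coefficient of variation was 0.0549. The floor for a count of 0 is 3 counts, which is 0.147 to 0.215 CPM per library and covers counting error only. No libraries were identical, and replicates differed beyond sampling noise (chi-square per gene 2.32 to 8.28).

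Alternatives were DESeq2 1.42.0, limma 3.58.1 on log2(FPKM + 1) and log2(FPKM + 0.1), other scalings and filters, the replicate number as a block, removal of each library's trend with GC content and exonic length (GENCODE 29, GC known for 99.4% of genes tested) and leaving out each library. Copies were sought by alignment of transcripts at 95% identity over 100 bases. All 10 genes are named, with list genes past the threshold (up to 6 per list in full) and others whose role was needed, copies of PGM5, genes at or beside a member, TNFAIP8 and the 5 genes most like PGM5. Some list genes are counted but not reported here by name. The genes and lists were chosen with earlier results of these data known.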

Additional observations from a re-analysis of the deposited data

How the results depend on the processing

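Depth limits the scarce genes: PGM5 rests on 61 to 93 counts per vector library, and counts of GYG2, PYGM and the PGM5 copies were lower still. Over 692 alternative values of single genes, 598 kept their direction and side of the threshold, and 12 changed sign. Of those that kept their sign, 75 no longer passed and 7 newly passed. A change of sign was counted as that alone. With the trend removed, UGP2 changed sign and also newly passed, and SGCE changed sign and also no longer passed. PGM5, PYGB, PYGL and PGM2L1 kept their direction and side of the threshold in every alternative run. The cause of each change given here was not tested.

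The log2 fold change of PGM1 changed sign with library totals only (-0.015), in limma on log2(FPKM + 1) (-0.014) and on log2(FPKM + 0.1) (-0.015), and without vector 1 (-0.019), in a range of -0.019 to 0.15 when leaving out each library in turn. That of UGP2 did so with the GC and length trend removed (0.16), with the block added (0.16), without TIPE 2 (0.0019) and without vector 2 (0.0048), in a range of -0.053 to 0.0048 when leaving out each library in turn. With the trend removed, PGM3 had 0.066 and SGCE 0.13, and with the block added 0.067 and 0.13.

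Genes called higher numbered 2967, and 1912 and 1902 in limma on log2(FPKM + 1) and log2(FPKM + 0.1), with 2205 to 3184 when leaving out each library in turn. Genes called lower numbered 2935, with 2286 to 3153. Of the 10 genes, 3 were called higher (3 to 4 when leaving out each library) and 5 with the trend removed (3 with the block added, where UGP2 and GBE1 were no longer called), and 1 was called lower (1 to 2), with 3 for library totals only and 2 in both limma fits. Over the 5 lists, 22 rose (19 to 24) and 14 in both limma fits, and 8 fell (5 to 9), with 18 for library totals only and 14 in both limma fits. In the glycogen list, 5 rose (3 to 5) and 1 in both limma fits, and 3 fell (1 to 4), with 7 for library totals only and 6 in both limma fits. In the glucose 6-phosphate list, 5 rose (4 to 7) and 0 fell, against 1 that fell for library totals only, in both limma fits and with the trend removed, with or without the block. In the hexosamine and UDP-sugar list, 2 rose (1 to 2) and 1 for library totals only, in DESeq2 and in both limma fits, and 2 fell (2 to 3), with 4 for library totals only, 1 with the trend removed and 0 with the block added. In the phosphomannomutase and pentose list 0 fell, against 2 for library totals only and in both limma fits and 1 with the trend removed, with or without the block. In the PGM5 partner list, 4 rose (3 to 4) and 2 in both limma fits, and 3 fell (1 to 3), with 1 when the trend was removed, with or without the block. With the trend removed and no block, that gene was DAG1, which was not among the 3.

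Same-numbered libraries did not deviate together, with correlations of -0.02, -0.03 and -0.08, beside -0.04 to 0.06 for libraries of unlike number. No shared deviation was thus detected, but such correlations cannot show whether the libraries were prepared in pairs. With the replicate number as a block, 5601 genes were called, against 5902, and 5559 were shared with the same direction. The trend removed left 4879 called, of which 3791 were shared, and DESeq2 called 5140.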
